A study of Mus musculus with 12 samples.

Results

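Butyrophilin and butyrophilin-like genes encode membrane proteins of the immunoglobulin superfamily that are related to the B7 costimulatory ligands. In the gut, enterocytes carry Btnl1 and its partners at their surface, and Btnl1 paired with Btnl6 is known to support a resident subset of gamma-delta intraepithelial T cells. Other relatives act elsewhere: Btn1a1 in milk fat secretion, and Btnl2 and Btn2a2 as dampeners of T cell activation. The 7 genes described here are Btnl1, Btnl2, Btnl4, Btnl6, Btnl9, Btn1a1 and Btn2a2, out of 30139 genes or transcripts on the array. They were found by gene name and were read by 12 of 39429 probes: 3 for Btnl9, 2 each for Btnl1, Btn1a1 and Btn2a2, and 1 each for Btnl2, Btnl4 and Btnl6. The set was chosen by its measured values, namely the low signal of several of its genes in polyps. Values of polyps are therefore given as a description, with no p-value for a gene of the set.

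The arrays were single-colour Agilent whole-genome arrays of colorectal RNA from female C57BL/6N mice aged 14 weeks. There were 4 arrays each of normal tissue from wild-type mice (102, 104, 105 and 108), normal tissue from Apc+/Δ716 mice (103, 106, 107 and 110) and polyps from the same 4 Apc+/Δ716 mice. Δ716 is a truncating allele of Apc, a gene that restrains the Wnt pathway and tumour growth. By genotype, the Apc+/Δ716 mice are heterozygous for it. Allele copies of Apc in polyp cells were not measured. The polyps are adenomas of these mice, taken as whole pieces of tissue. Each array is 1 mouse and tissue, and for such pieces fewer cells of a type and less RNA per cell cannot be told apart. Between 64.6% and 73.8% of spots per array were well above background and none was saturated. Per the file headers, all wild-type arrays lay on 1 slide. Slide 2 held both tissues of mice 103 and 106, and slide 3 those of mice 107 and 110. Every comparison with wild-type tissue is thus also one between slides, and genotype and slide cannot be told apart in it. Levels are log2 signals relative to the array's 75th percentile, as mean ± SD (n = 4). Levels of different probes are not comparable. Differences are in log2 units ± SE, and a gene was called where limma's adjusted p (Benjamini-Hochberg over 20084 tested genes) was under 0.05.

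Btnl2, Btnl1, Btnl4 and Btnl6 lie in this order on chromosome 17, between the MHC class II genes and Notch4, with the pseudogene Btnl5-ps between Btnl4 and Btnl6. The probes used lie on chromosome 17 at 34506361-34506420 for Btnl2, 34522865-34522924 for Btnl1, 34606614-34606673 for Btnl4 and 34644944-34645003 for Btnl6 (mm9, as the array files give them). Whether a probe is exonic, coding or in a UTR is not annotated in the files. Btnl4, Btnl5-ps and Btnl6 are close copies, and 2 pairs of their probes align with each other. The stretches below, at most 30 bases each, show how close the probes are, with capitals marking bases that differ within a pair.

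Btnl4 probe 1, bases 28 to 57: gattccactctgtgcttggaTgacctctTc

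Btnl5-ps probe 2, bases 1 to 30: gattccactctgtgcttggaGgacctctCc

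Btnl6 probe 1, bases 1 to 30: ttCaaTgattatcaActccatggAatgtgc

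Btnl5-ps probe 3, bases 7 to 36: ttAaaAgattatcaGctccatggCatgtgc

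Over the whole alignments, the first pair shared 30 of 33 positions and the second 47 of 54. Signals of Btnl4, Btnl6 and Btnl5-ps are thus uncertain to the extent that a probe of one binds RNA of another, and cross-hybridization was not tested. The second Btnl1 probe, at 34522584-34522643, had no such partner among the probes aligned here. Its longest match to the Btnl4 probe was 9 bases, and with Btnl5-ps probe 1 it shared 14 of 22 positions. The Btnl1 probe used for its levels was not aligned with other probes.

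Btnl1 probe 2: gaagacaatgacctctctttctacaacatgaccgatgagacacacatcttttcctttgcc

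The starts of Btnl4 and Btnl6 are also near-copies. The 250 bases before each start (RefSeq, GRCm38.p6, minus strand, chr17:34475938-34476187 for Btnl4 and chr17:34517353-34517602 for Btnl6) aligned with 228 identical bases, or 91.2% of 250. They are shown because these genes also moved together, with capitals for bases that have no identical partner in the alignment.

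Btnl4: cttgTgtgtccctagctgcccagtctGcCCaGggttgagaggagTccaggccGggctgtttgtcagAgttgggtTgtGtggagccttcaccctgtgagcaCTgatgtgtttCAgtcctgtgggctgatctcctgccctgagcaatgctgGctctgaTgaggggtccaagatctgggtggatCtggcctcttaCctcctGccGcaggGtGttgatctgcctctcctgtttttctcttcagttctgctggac

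Btnl6: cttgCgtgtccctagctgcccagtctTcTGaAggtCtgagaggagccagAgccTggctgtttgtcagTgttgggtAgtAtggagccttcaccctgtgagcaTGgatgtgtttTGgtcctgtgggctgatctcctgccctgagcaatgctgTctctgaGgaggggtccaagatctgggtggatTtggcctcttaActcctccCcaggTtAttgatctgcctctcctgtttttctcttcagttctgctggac

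The same stretch of Btnl1 (plus strand, chr17:34376882-34377131) had 133 and 129 bases identical to those of Btnl4 and Btnl6 after alignment, a level that other pairs of the set also reached. It is shown with capitals for its match to CAAAGTC, a half-site of the nuclear receptor Hnf4a.

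Btnl1: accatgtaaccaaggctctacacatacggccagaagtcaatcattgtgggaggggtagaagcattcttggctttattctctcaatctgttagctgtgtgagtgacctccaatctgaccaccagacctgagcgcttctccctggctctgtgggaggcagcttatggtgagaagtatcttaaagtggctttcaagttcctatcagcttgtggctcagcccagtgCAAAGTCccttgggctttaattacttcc

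In a search of both strands, CAAAGTC was found on the plus strand in the stretches of Btnl1 and Btnl2. It was found on either strand in 3.84% of 32851 mouse promoters of the same length. TTTATNG, a Cdx site, and ATCAAAG, a TCF/LEF site, were found in none of 6 promoters of the set and in 9.81% and 3.21% of all. The motifs do not overlap in these stretches. Btn1a1 had no entry.

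Btnl1, the shared partner of the gut butyrophilin-like proteins, had the widest range of the set. In wild-type normal tissue it read 1.88, 2.52, 2.11 and 2.52 in mice 102, 104, 105 and 108. In Apc normal tissue it read 2.39, 0.01, 4.01 and −0.33 in mice 103, 106, 107 and 110, and in polyps of the same mice −3.81, −5.15, −2.47 and −2.67. Every polyp lay below every normal sample, by at least 2.14 against Apc normal tissue and 4.35 against wild-type tissue. Polyps differed from Apc normal tissue by −5.05 ± 1.04 (33.0-fold lower) and from wild-type tissue by −5.78 ± 0.56 (55.1-fold lower). The second probe gave −4.73 and −5.47 for the same differences. Without the Apc normal array of mouse 107 the first difference was −4.21, and without that of mouse 110 it was −5.66.

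Btnl6, the partner of Btnl1 in the small intestine, was narrow in normal tissue and low in every polyp. It read −2.20, −2.27, −2.51 and −1.91 in the wild-type mice and −1.78, −2.23, −1.56 and −2.31 in Apc normal tissue of mice 103, 106, 107 and 110. In the polyps of those mice it read −6.99, −7.32, −5.32 and −4.92. Normal and polyp values did not overlap, with a gap of 2.61 to Apc normal tissue. The polyp arrays of slide 3, mice 107 and 110, were the higher ones, and only there, on 2 of 4 polyp arrays, was the probe well above background. The readings of mice 103 and 106 lay below the lowest signal well above background on their arrays, −5.63 and −6.69. The difference was −4.17 ± 0.55 (18.0-fold lower) from Apc normal and −3.91 ± 0.53 from wild-type tissue, and by slide −5.15 on slide 2 and −3.19 on slide 3. The slide 2 value, and in part the group differences, thus rest on polyp signal not above background, which gives no exact size. A further setting joined normexp background correction with an offset of 50 and quantile normalization, and is called normexp correction below. With it the 2 differences were −2.24 and −2.07.

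Btnl4, a close copy of Btnl6 that can also pair with Btnl1, was the steadiest of the set in Apc normal tissue. It read −2.13, −2.08, −1.96 and −1.62 in the wild-type mice and −1.70, −1.85, −1.54 and −1.84 in Apc normal tissue. In polyps of mice 103, 106, 107 and 110 it read −4.59, −5.18, −4.05 and −3.54. Again no polyp reached the normal range, the nearest lying 1.70 below Apc normal tissue. The difference was −2.61 ± 0.32 (6.11-fold lower) from Apc normal tissue and −2.40 ± 0.33 from wild-type tissue, or −1.73 and −1.57 with normexp correction. By slide it was −3.11 and −2.11.

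Btnl2, a relative known to restrain T cell activation, was dim and moved less. Wild-type normal tissue read −3.58, −3.27, −3.34 and −3.56, Apc normal tissue −3.51, −3.24, −2.03 and −3.45, and polyps −3.83, −3.90, −3.64 and −3.95. The polyps were lowest throughout, but only by 0.14 against the nearest Apc normal array and 0.07 against the nearest wild-type one. Mouse 107 stood above the other normal arrays, and the difference of polyps from Apc normal tissue was −0.77 ± 0.32 (1.71-fold), with −0.40 ± 0.11 from wild-type tissue. Without the Apc normal array of mouse 107 the first was −0.43, and with normexp correction the second was −0.17.

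Btnl9 lies on chromosome 11, with probes at 48979733-48979792, 48989314-48989373 and 48982132-48982191 (mm9), and its 3 probes disagreed. The brightest read −4.78, −4.84, −4.15 and −4.80 in wild-type, −5.50, −5.17, −4.83 and −4.89 in Apc normal and −5.98, −5.95, −5.56 and −5.14 in polyp tissue. It was well above background on 4 wild-type, 3 Apc normal and 2 polyp arrays, and polyps overlapped Apc normal tissue (−0.56 ± 0.23). The difference from wild-type tissue was −1.01, and with normexp correction these values were −0.20 and −0.42. The second probe stood at −6.55 ± 0.28 in wild-type tissue, where no array was well above background, at −5.45 ± 0.42 in Apc normal and at −5.81 ± 0.58 in polyp tissue. It was well above background on 2 Apc normal and 2 polyp arrays. Its mean was higher in Apc normal than in wild-type tissue, the opposite direction to the brightest probe. Signal not above background on the remaining arrays leaves the size of that difference unknown. The third probe was well above background on 2 of 12 arrays.

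Btn1a1, known for binding xanthine dehydrogenase on the milk fat globule, was the only gene of the set whose used probe was higher in polyps. That probe, on chromosome 13 at 23549437-23549496, read 1.59, 1.64, 1.48 and 1.31 in wild-type, 1.47, 1.07, 1.38 and 1.30 in Apc normal and 2.13, 2.33, 2.08 and 1.92 in polyp tissue. The difference from Apc normal tissue was 0.81 ± 0.13 (1.75-fold higher), with no overlap. The other Btn1a1 probe, at 23555734-23555793, was well above background on 0 of 12 arrays, with means of −7.18 in wild-type, −7.49 in Apc normal and −8.10 in polyp tissue. Averaged over both probes the difference from Apc normal tissue was 0.10 and that from wild-type tissue −0.15, against 0.81 and 0.61 on the bright probe, and neither was called.

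**Figure D1:**
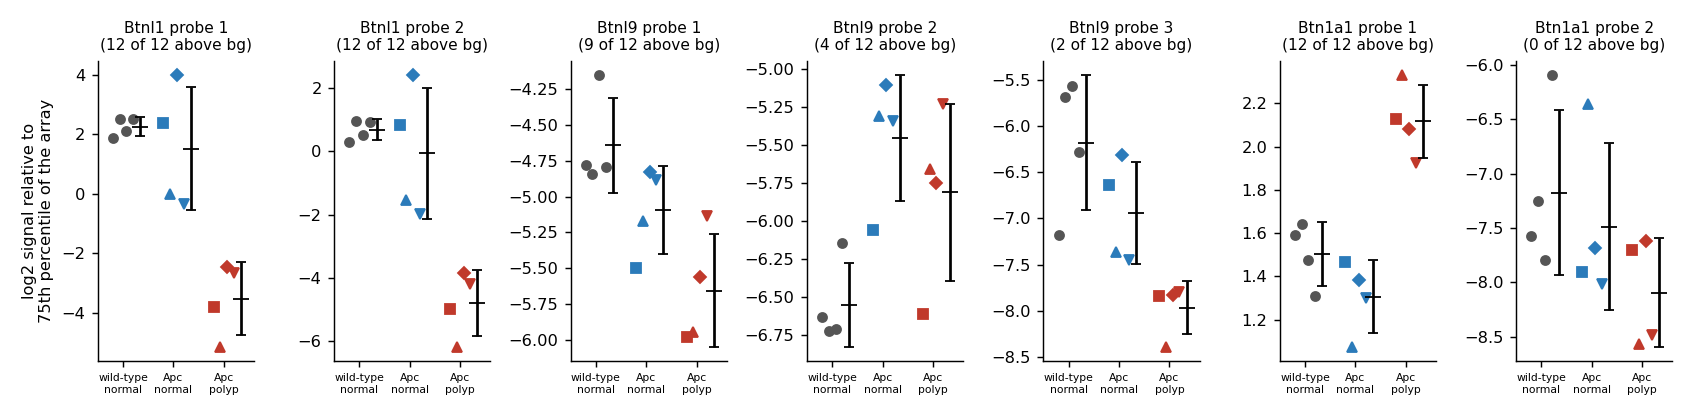
Log2 signal, scaled to each array's 75th percentile (vertical axes, each panel its own) for every probe of Btnl1, Btnl9 and Btn1a1 on 12 arrays, with mean ± SD (n = 4) per group. Symbols mark mice 103 (square), 106 (upward triangle), 107 (diamond) and 110 (downward triangle), with circles for wild-type mice. Both Btnl1 probes gave the same pattern, while those of Btnl9 and of Btn1a1 did not, and the second Btn1a1 probe was above background (bg) on 0 of 12 arrays.

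The bright Btn1a1 probe holds a run of 22 alternating G and T bases, and the dim one holds none longer than 4. Of the tested genes, 0.51% were read by a probe with an alternating run of 16 or more, a length set after this was seen. The 68 such genes other than Btn1a1 whose run was of G and T had a median correlation of 0.98 with Btn1a1 over the 12 arrays, and 67 of them were higher in polyps than in Apc normal tissue, with a median difference of 0.75. The 33 genes with a run of C and A had a median correlation of −0.97, and 33 of 33 were lower in polyps, with a median of −2.16. Across the other 19982 tested genes the medians were −0.12 for the correlation and −0.06 for the difference. Among genes with a name other than a clone's, those most like Btn1a1 were Ung (r = 0.996), which encodes uracil-DNA glycosylase, Srek1 (0.995) and Epha5 (0.995), at ranks 1, 2 and 4, with runs of 34, 30 and 20 bases. Of the 50 genes most like it, 38 had such a run. These arrays share their dye, labelling and design, and what the bright probe binds was not tested.

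Btn2a2, a butyrophilin of antigen-presenting cells, was not measurable here. Neither of its probes, on chromosome 13 at 23568967-23569026 and 23570103-23570162, was well above background on any of 12 arrays, with group means of −8.30 to −7.41. It was the 1 gene of 7 that did not pass the filter on dim probes, so counts below cover 6.

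**Figure D2:**
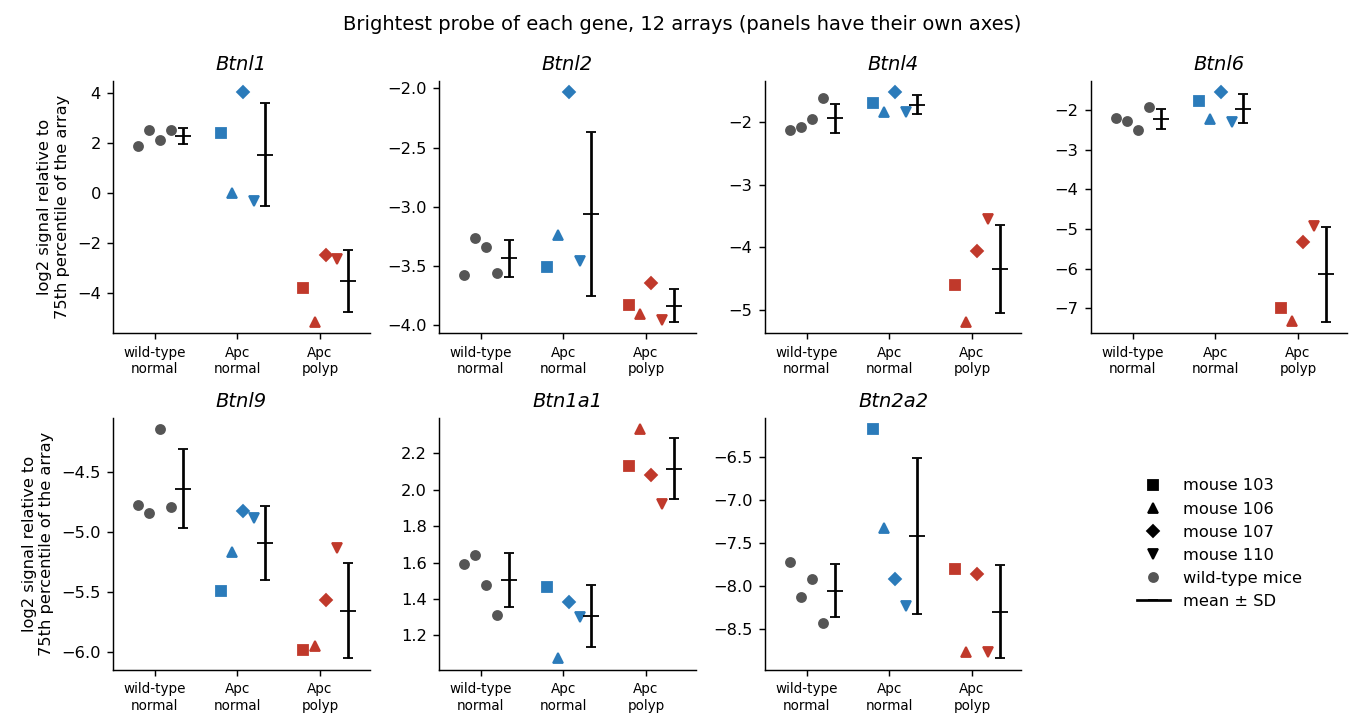
Log2 signal, scaled to each array's 75th percentile (vertical axes, each panel its own) for the brightest probe of each gene, by group, with mean ± SD (n = 4). Squares, upward triangles, diamonds and downward triangles are mice 103, 106, 107 and 110, and circles are wild-type mice. Polyps lie below all normal samples for Btnl1, Btnl2, Btnl4 and Btnl6 and above them for Btn1a1, whereas all Btn2a2 values are below background. The set was chosen for low polyp values, and the share of all genes so separated is not given.

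By the call rule, Btnl1, Btnl4 and Btnl6 were called lower and Btn1a1 higher in polyps than in Apc normal tissue. Across all tested genes 45.5% were called in that comparison, 24.9% as lower. Against wild-type tissue Btnl1, Btnl2, Btnl4, Btnl6 and Btnl9 were called lower and Btn1a1 higher, where 60.2% of all genes were called, 32.8% as lower. Btnl9 passed the filter on dim probes only through wild-type tissue, where its probe was brightest, so its call against that tissue carries no weight. Because the low polyp values chose the set, nothing is read from these counts. They also moved with the processing. Against Apc normal tissue, averaging probes ended the call of Btn1a1 and added Btnl9, and a stricter filter, which asks for signal well above background on each array compared, left out Btnl6 and Btnl9. Leaving out the normal tissue of mouse 107, or fitting all 12 arrays, added Btnl2, while leaving out the normal tissue of mouse 103 or the polyp of mouse 110, or taking slide as a fixed block, added Btnl9. Against wild-type tissue, Btnl2 was not called with normexp correction or in fits of all 12 arrays, with or without slide as a random block, and Btn1a1 was not called with probes averaged. The stricter filter left out Btnl6 and Btnl9 there too. Slide 3 alone, with 2 arrays per tissue, called 2 of the 4, Btnl4 and Btnl6, while Btnl1 (−4.41 ± 1.60) and Btn1a1 (0.66 ± 0.16) were not called there, and slide 2 called 3. Both comparisons use the same polyp arrays.

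Within each mouse, the polyp was lower than the normal tissue for each of Btnl1, Btnl2, Btnl4, Btnl6 and the brightest Btnl9 probe. The share of all tested genes lower in every mouse is not given here. As low polyp values chose the set, nothing is read from this agreement. For Btnl1 the differences were −6.20, −5.16, −6.48 and −2.33 in mice 103, 106, 107 and 110. For Btnl6 they were −5.22, −5.08, −3.76 and −2.61, where the polyp signals of mice 103 and 106 were not well above background. For Btnl4 they were −2.90, −3.33, −2.51 and −1.70. Mouse 110 had the smallest difference for each of these 3 genes. For Btnl2 they ran from −1.61 in mouse 107 to −0.33 in mouse 103, and for Btnl9 from −0.78 in mouse 106 to −0.25 in mouse 110. With mouse number as a block, Btnl2 (SE 0.24) and Btnl9 (SE 0.13) were called as well, so that 6 genes were called in place of 4, while 9322 genes were called over the array. Btnl9 passed the filter on dim probes only through wild-type tissue, so its call here rests on a probe above background on 3 Apc normal and 2 polyp arrays.

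**Figure D3:**
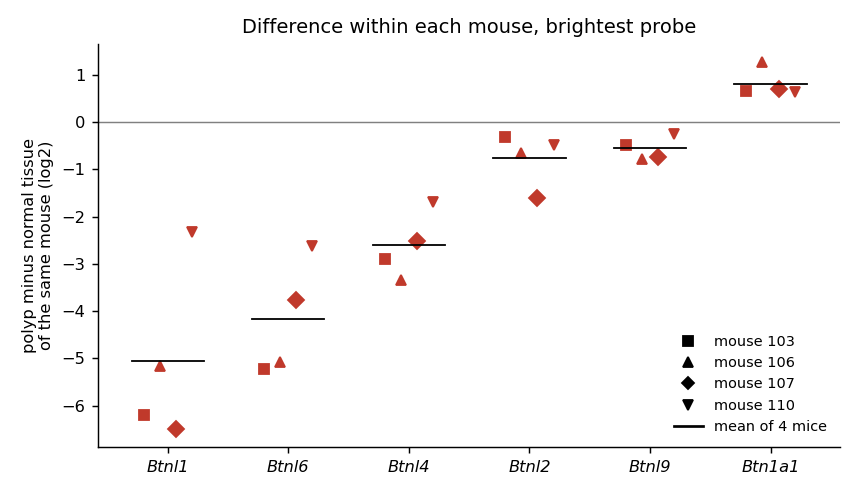
Polyp minus normal tissue of the same mouse (vertical axis, log2) for the brightest probe of 6 genes. Symbols are mice 103 (square), 106 (upward triangle), 107 (diamond) and 110 (downward triangle), and bars are means of 4 mice. Btnl1 spans −6.48 to −2.33, and mouse 110 is nearest to 0 for Btnl1, Btnl4 and Btnl6.

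Normal tissue of Apc mutant and wild-type mice is the comparison that the choice of the set did not use directly. Its Apc normal arrays took part in that choice, however, and its wild-type arrays may have done so too. Genotype and slide cannot be told apart in it. No gene of the set passed. Btnl1 differed by −0.74 ± 0.90 (limma adjusted p = 0.713), Btnl2 by 0.38 ± 0.32 (0.581), Btnl4 by 0.21 ± 0.14 (0.470), Btnl6 by 0.26 ± 0.20 (0.558), Btnl9 by −0.45 ± 0.21 (0.319) and Btn1a1 by −0.20 ± 0.12 (0.446). The 2 groups overlapped for each of these probes. Btnl9 was tested only because wild-type tissue, the higher group here, passed the filter on dim probes, which limits its value. Leaving out Apc mouse 107 gave −1.57 for Btnl1 and 0.03 for Btnl2, leaving out Apc mouse 110 gave −0.12 for Btnl1, and none of these was called. At an unadjusted p under 0.05 limma also gave 0 genes of the set, against 3439 of all tested genes, of which 0.169% were called and 0.0199% were called as lower. Smaller differences than these errors allow were not detectable with 4 arrays per group.

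The spread of Btnl1 in Apc normal tissue was wide. Its SD there was 2.06, which 0.707% of tested genes exceeded, against 0.32 in wild-type tissue, which 25.8% exceeded. Mice 106 and 110 were low and mouse 107 was high, on both probes. Btnl4 had an SD of 0.15 in the same 4 arrays and Btnl6 one of 0.36, below and just above the median SD of all genes, 0.28. In polyps the SDs were 1.23 for Btnl1, 1.19 for Btnl6 and 0.70 for Btnl4, against a median of 0.20.

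The Apc normal arrays low in Btnl1 were high in lymphoid genes. The mean level of 9 tested B and plasma cell markers was 0.83 and 1.01 in mice 106 and 110, and −0.79 and −1.26 in mice 103 and 107. For 18 tested genes of intraepithelial and gamma-delta T cells it was −1.77 and −1.72 against −2.76 and −2.83, and for 11 markers of antigen-presenting cells −0.66 and −0.67 against −1.57 and −1.72. Absorptive colonocyte markers were 4.48 and 4.53 against 5.06 and 5.01 in the same order, and 9 general epithelial markers were 5.83 and 5.86 against 6.10 and 6.05. The part of these cells in the Btnl1 values was not tested.

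**Figure D4:**
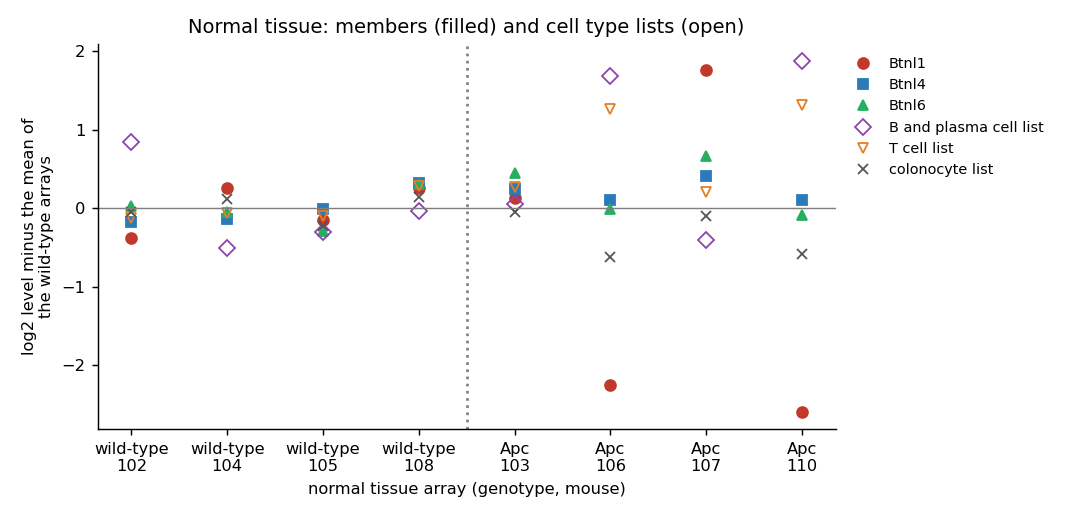
Log2 level minus the mean of the wild-type arrays (vertical axis) on the 8 normal tissue arrays (horizontal axis, genotype and mouse). Filled points are Btnl1, Btnl4 and Btnl6, and open points and crosses are the mean levels of marker lists. Btnl1 is low in Apc mice 106 and 110, where the B and plasma cell and T cell lists are high, and Btnl4 stays near 0.

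Across the 8 normal arrays, the genes of the set that were above background on all of them did not pass as pairs. Of 10 pairs, Btnl4 with Btnl6 had the highest correlation (Pearson r = 0.788, exact permutation p = 0.0222, adjusted p = 0.222, Spearman rho = 0.619, exact permutation p = 0.115), and r was 0.777 without the 2 arrays farthest from the median of Btnl4. Btnl1 with Btnl6 gave r = 0.618 (exact permutation p = 0.100, adjusted p = 0.360, rho = 0.548, exact permutation p = 0.171), or 0.744 without the 2 farthest arrays. Within the 4 Apc normal arrays these r were 0.974 and 0.997, and within the wild-type arrays 0.624 and 0.429, values from 4 points only. Btnl1 with Btnl4 gave r = 0.332 (exact permutation p = 0.424, adjusted p = 0.530, rho = 0.381, exact permutation p = 0.360), or 0.708 without the 2 farthest arrays, with 0.988 within Apc normal and 0.548 within wild-type arrays.

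For each tested gene of the set, the genes most like it were ranked by Pearson r across 20083 others. The ranks are given as a description, since over the 12 arrays 4 polyps and 8 normal samples set most of r. Transcripts known only by clone names or similar identifiers took part in the ranks and are not named. Over the 12 arrays Btnl1 was most like Guca2a (r = 0.994), which encodes guanylin, a peptide of surface colonocytes, then Mettl7b (0.993), Hsd3b3 (0.992) and Hsd3b6 (0.989), steroid dehydrogenases, and Mab21l2 (0.990). Guca2a stood at 7.34 ± 0.42 in wild-type, 6.92 ± 1.12 in Apc normal and 4.31 ± 0.56 in polyp tissue. Over the 8 normal arrays the nearest to Btnl1 with names stood at ranks 1 and 3 to 6. They were Acer1 (0.983), an alkaline ceramidase gene, Arhgef28, Klc2, Ugt1a10 (0.979), a glucuronosyltransferase gene, and Prkaa2, an AMP kinase subunit gene (0.978). Mean levels in Apc normal and polyp tissue were 1.19 and 1.18 for Arhgef28 and −0.26 and 0.27 for Klc2. Those of Acer1, Ugt1a10 and Prkaa2 were lower in polyps. Btnl4 was most like Btnl5-ps (0.996), the thiolase gene Acat1 (0.996) and the apolipoprotein gene Apob (0.996), and Btnl6 ranked 6 of 20083 for it. For Btnl6 an unnamed transcript ranked 1, followed by Mtm1 (0.994), Btnl4 and Btnl5-ps (both 0.993). Btnl1 ranked 1201 for Btnl4 and 908 for Btnl6. Btnl2 was most like Fam107b (0.955), Pdk3 and Cyp2c65, and for Btnl9 an unnamed transcript ranked 1, followed by Gfra2 (0.929), Pcmtd1 and Azin2.

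The nearest relatives were described from a list of 17 butyrophilin relatives and Skint genes, of which 7 were tested. Of these, 4 were called lower and 1 higher in polyps than in Apc normal tissue. Among all tested genes 24.9% were called lower and 20.5% higher. Btnl5-ps fell by 3.12 ± 0.38, and its other 2 probes read −2.84 and −2.93. These are the 2 probes that align with the Btnl4 and Btnl6 probes, and whether they read RNA of those genes was not tested. As a close copy of chosen genes, Btnl5-ps is described without a p-value. Btnl10 was called lower at −2.18 ± 0.19 (limma adjusted p = 0.000135). However, its probe holds a run of 31 alternating C and A bases, and its other probe was above background on 0 arrays. Skint7, called higher at 0.73 ± 0.17, has a probe with a run of 27 G and T bases. Ermap, an erythroid membrane protein gene, fell by 0.44 and Mog, a myelin gene, by 0.49. An array transcript named only as butyrophilin-like, LOC100045026, named after its values were seen, stood at 1.41 ± 0.24, 1.67 ± 0.41 and −1.75 ± 0.78 in wild-type, Apc normal and polyp tissue.

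Of the 24 tested neighbours of the chromosome 17 cluster, 5 were called lower and 1 higher in polyps than in Apc normal tissue. The share called lower was near the 24.9% of all tested genes, with a median of −0.37 against −0.06 for all tested genes. Tnxb, a matrix tenascin gene, fell by 2.12 ± 0.16 and Agpat1, a phospholipid synthesis gene, by 1.09 ± 0.15 (limma adjusted p = 8.65e-05 and 0.000692). BC051142, which lies between Btnl1 and Btnl4, stood at −0.30 ± 0.11 (adjusted p = 0.0568), and Notch4 at 0.60 ± 0.24 (0.0707).

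Many transcription factors of enterocytes were called lower in polyps. The list of 20 tested genes also holds Bmp2, which encodes a secreted ligand. Of these 20, 13 were called lower than in Apc normal tissue, Bmp2 among them (−1.22 ± 0.41), and 0 higher, with a median of −1.10. Among all tested genes 24.9% were called lower. Hnf4a and Hnf4g, nuclear receptors of enterocyte genes, fell by 1.63 ± 0.18 and 1.19 ± 0.18 (limma adjusted p = 0.000284 and 0.00121), and the homeobox gene Cdx1 fell by 1.69 ± 0.17. Klf4 fell by 2.80 ± 0.31 and the bile acid receptor gene Nr1h4 by 2.43 ± 0.26. Cdx2 stood at −2.37 ± 1.14 and did not pass (adjusted p = 0.126).

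Markers of absorptive cells, the cells that carry Btnl1, were also lower. For the counts in this paragraph, the share called lower among all tested genes was 24.9%. Of 16 absorptive colonocyte markers 13 were called lower and 0 higher, led by Cyp2c55 (−6.63 ± 0.91) and Slc26a3 (−5.31 ± 0.42), and the list's mean level was 4.48 to 5.06 in Apc normal and 1.55 to 2.52 in polyp tissue. Of 11 small intestinal enterocyte markers 8 were called lower, led by Rbp2 (−3.75 ± 0.21) and Fabp2 (−3.50 ± 1.20). General epithelial markers had mean levels of 5.83 to 6.10 in Apc normal and 5.19 to 5.50 in polyp tissue. Of 9 given here, 6 were called lower and 0 higher, led by Vil1 (−1.13 ± 0.17), a microvillus protein gene, and Lgals4 (−0.89 ± 0.12), a galectin gene. With quantile normalization 3 were called lower and 1 higher. Epcam stood at −0.36 ± 0.14 (limma adjusted p = 0.0719). All 10 smooth muscle markers were called lower, with mean levels of 2.73 to 3.26 and −1.41 to −0.03, led by Des (−4.79) and Synpo2 (−4.54). The part of cell makeup in the values of the set was not tested.

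No tested gene of the T cell list was called lower in polyps. Of 18 tested genes of intraepithelial and gamma-delta T cells, from 37 listed, 4 were called higher in polyps than in Apc normal tissue and 0 lower, with a median of 0.45. Of all tested genes 20.5% were called higher, a share near that of this list. A further 24.9% were called lower, and the list was not tested against that share. The cytotoxic granule gene Gzmb rose by 3.23 ± 0.69 and Jaml, an adhesion receptor gene of epithelial T cells that neutrophils also express, rose by 2.49 ± 0.20 (limma adjusted p = 0.00603 and 9.27e-05). Cd3e, common to all T cells, stood at −0.21 ± 0.20 (adjusted p = 0.431), and Itgae, the integrin that holds T cells to epithelium, at 0.71 ± 0.37 (0.153). Cd8a and the gamma chain segment Trgv7 did not pass the filter on dim probes, and Trdc was not found under that name, so the Btnl-dependent subset itself was not measured.

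Genes listed as epithelial cytokines and ligands for these T cells were called in both directions. That list also holds the receptor gene Il15ra and the transcription factor gene Ahr. Of all tested genes 24.9% were called lower and 20.5% higher. The counts of this list and of the B7 list below were not tested against these shares. Of 13 tested, 3 were called lower, Il7 (−1.51 ± 0.18), Il18 (−1.34 ± 0.32) and Il15 (−1.14 ± 0.25), cytokines that sustain or activate lymphocytes. Pvr (1.16 ± 0.18), a ligand of the receptor CD226, Ulbp1 (0.92 ± 0.25), Ahr (0.84 ± 0.12) and Il15ra (0.43 ± 0.15) were called higher. Among 14 B7 family ligands and receptors 4 were called higher and 1 lower. Pvr is in both lists and is counted among the higher genes of each. Cd276, an inhibitory B7 ligand gene, rose by 2.99 ± 0.16, and Vtcn1, another, was on no Apc normal array well above background and its polyp signal was higher by at least 6.50-fold (limma adjusted p = 8.91e-05).

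The other lists were fixed as markers of cells that could carry a member or share its role. Among all tested genes 24.9% were called lower and 20.5% higher, and no list was tested against these shares. Of 12 endothelial markers 1 was called higher, Cdh5 (1.08 ± 0.21), and 1 lower, Tek (−0.50 ± 0.16). Of 9 adipocyte markers 4 were called lower and 0 higher, led by Plin4 (−3.03 ± 0.29) and Fabp4 (−1.26 ± 0.33). Antigen-presenting cell markers had 1 of 11 called higher, Cd68 (1.01 ± 0.32), and 1 lower, Ciita (−0.66 ± 0.16), while among B and plasma cell markers 1 of 9 was higher, Sdc1 (0.99 ± 0.18), and 2 lower, Pax5 (−1.98 ± 0.33) and Cd22 (−1.04 ± 0.29). Of 9 milk fat and lipid droplet genes, Cidea was called higher (1.27 ± 0.26) and Cd36 (−1.83 ± 0.16) and Xdh (−1.03 ± 0.29), which encodes the partner of Btn1a1 in milk fat, lower.

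**Figure D5:**
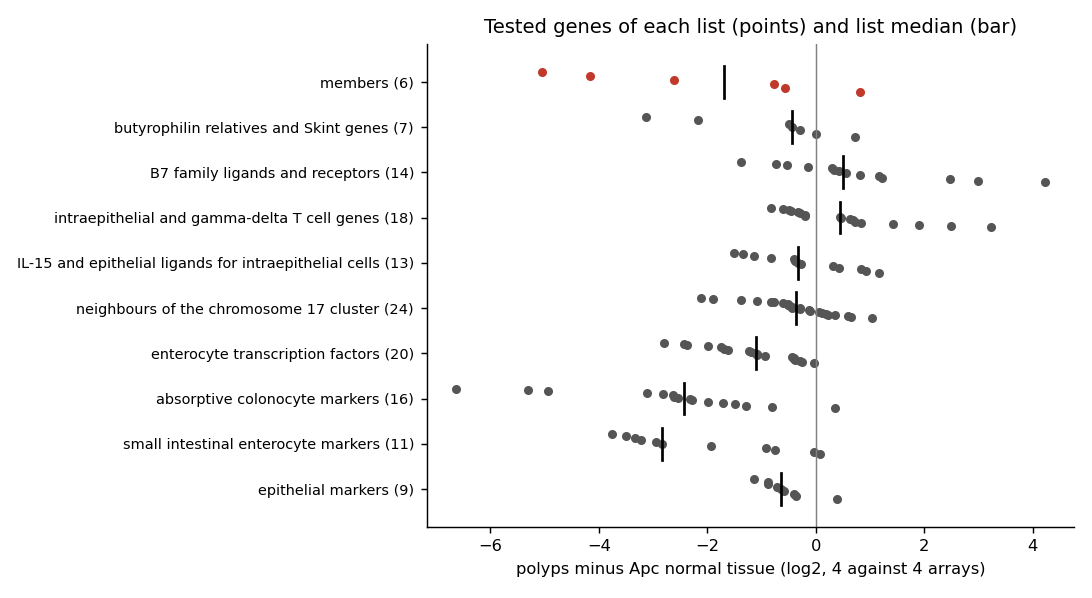
Polyps minus Apc normal tissue (horizontal axis, log2, 4 against 4 arrays) for tested genes of the set (top row) and of 9 lists, with a bar at each median and the number of genes in brackets. The 3 lowest genes of the set lie at −5.05, −4.17 and −2.61, and the absorptive colonocyte and small intestinal enterocyte lists have medians of −2.44 and −2.84.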

How the data were processed

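Cy3-labelled RNA of 12 tissues was measured on 12 arrays. The deposited scanner files hold spot intensity, which Agilent Feature Extraction 10.7.3.1 made by background subtraction, per the file headers and the submitters' processing notes. Here controls and 1403 spots flagged as outliers were dropped, log2 processed signals were averaged per probe and the array's 75th percentile was subtracted. Probes were named from the files, updated through RefSeq tables (GRCm38.p6, names and sequences only; 6 of 7 genes had a promoter). The brightest probe stood for a gene, and it was tested where well above background on all 4 arrays of a group (20084 genes). The 8 arrays of a comparison were fitted alone with limma 3.58.1 (lmFit, eBayes; R 4.3.3). Correlations over 8 arrays used all 40320 pairings. The deposited series table holds relative intensity, within 1% of a constant multiple of the scanner values for over 99.8% of entries, and was an alternative. Other alternatives were scaling, background correction, filters, probe averaging, all 12 arrays, slide, mouse, and each array left out. Steps were tested on simulated data with known changes. Named genes were the set, the genes most like each member, and 2 called genes of largest difference per list plus textbook ones; others are marked or were named after their values were seen, such as list genes beyond these. The members and lists were chosen with earlier results of these data known. Same-mouse normal and polyp arrays deviated together (r = 0.456, 0.170, 0.143 and 0.283), and the mouse numbers in the titles give the pairing. A result for 1 epithelial marker is not reported here, and that marker was left out of its list's counts and mean level.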

Additional observations from a re-analysis of the deposited data

Results flagged for a closer look

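Chance alone sets about 1 group in 20 apart in this way. In 3 groups of 4 arrays, 1 array lay far from the other 3, and all 3 were readings of Btnl9, whose signals are near background. The brightest Btnl9 probe read −4.15 in wild-type mouse 105, above the other wild-type mice. The second Btnl9 probe read −6.14 in wild-type mouse 108, again the highest of its group, where no array was well above background. The third Btnl9 probe read −8.40 in the polyp of mouse 106, the lowest of its group and below background.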

How the results depend on the processing

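The direction of each tested gene of the set in polyps against Apc normal tissue was the same under every alternative run, and 0 genes of the set were called between Apc normal and wild-type tissue under any of them, while the count over all genes in that comparison ran from 2 to 814 (34 in the main analysis). Against Apc normal tissue the number of called genes of the set was 4, from 4 to 5 with each array left out, 6 with the mouse number as a replicate block (5 lower and 1 higher) and 2 within slide 3. Over all genes in that comparison, 1902 to 10213 were called, the fewest within slide 3. The mouse block is a paired fit of the same 4 mice; it added Btnl2 and Btnl9 and ended no call. Averaging both Btn1a1 probes turned its difference from wild-type tissue to −0.15. Among the 10 pairs of genes over the normal arrays, 0 passed with either other scaling. As deviations from group means, Btnl1 with Btnl6 gave r = 0.85 (permutation p adjusted 0.0449). Such deviations sum to 0 within each group and cannot be freely exchanged, so that p is not exact and is not read as a pass. For this pair r was 0.997 within the Apc normal and 0.429 within the wild-type arrays. The r of Btnl2 with Btn1a1 was −0.10, and 0.0006 with quantile normalization, 0.016 with normexp correction and 0.17 as deviations; that of Btnl6 with Btn1a1 was −0.084, and 0.035 with normexp correction and 0.23 as deviations. The causes of these shifts were not tested. Signal near background limits Btnl9, Btn2a2 and the polyp values of Btnl6.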
